A study of Mus musculus with 32 samples.

Results

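The proteasome was followed through the 48 genes of the count table whose mouse symbol begins with Psma to Psmg and a digit, of 12451 genes in all. The GENCODE annotation holds 54 such genes, and the 6 that are not in the table are Psma8, Psmb11 and 4 pseudogenes. Of the 48, 46 encode subunits, activators, inhibitors or assembly chaperones of the proteasome. Psmc3ip, a meiotic recombination factor, and Psme2b, an intronless near-copy of Psme2, matched the symbol pattern as well. All 48 had enough counts to be tested in every comparison. YUMM3.3 is a Braf-mutant mouse melanoma line, and its mRNA was measured by BRB-seq, a method that barcodes samples during reverse transcription, pools them and reads the 3′ ends of transcripts. Cells were left untreated, or received IFN-γ (20 ng/ml), or Activin-A at 40 ng/ml, a TGF-β family ligand, or the 2 factors together. They were collected after 4 or 12 hrs, with 4 wells in each of the 8 groups and 32 in all. The dose of Activin-A is that of the paper's methods, and its figure legends for these data give a higher one. Every group comes from that 1 line, grown without other cell types and at 1 dose of each factor, and the p-values measure only the spread between its wells, which may be technical. The comparisons ask what IFN-γ, Activin-A and their combination did to tumor cells outside of a tumor.

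The proteasome is the protease that degrades ubiquitin-tagged proteins. Its core particle is a stack of rings of α and β subunits, in which Psmb5, Psmb6 and Psmb7 carry the active sites, and a regulatory cap of ATPases and other subunits unfolds the substrates. In cells exposed to interferon the inducible subunits Psmb8, Psmb9 and Psmb10 are built into new cores in place of Psmb5, Psmb6 and Psmb7, in that order, which gives the immunoproteasome. Psme1 and Psme2 form the PA28αβ ring that can take the place of the cap. Immunoproteasome and PA28αβ are known for the peptides that they provide to MHC class I molecules.

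Total counts ranged from 654539 to 1455074 per well, with a median of 988019.5, and the 48 genes held between 0.777% and 1.17% of them. Levels are given below as CPM, the counts of a well scaled to a common library size with TMM factors. They compare wells for 1 gene and not genes with each other. All 7 melanocyte markers checked were in the table, at 320.8 to 451.0 CPM in sum over all wells. The leukocyte markers Ptprc, Lyz2 and Cd68 were in the table, at 2.94 to 26.0 CPM in sum, and Cd3e, Itgam and Adgre1 were not, nor were the endothelial markers Pecam1 and Cdh5 or Foxn1. With Activin-A at 4 hrs, the library of replicate 1 stood apart from the other 3 of its group. Its χ2 per gene against them was 2.45, 2.89 and 2.73, compared with at most 1.54 for every other pair of replicates, and the main values of that group are given with and without it.

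Positions are those of GENCODE's annotation of GRCm38. Psmb8 (ENSMUSG00000024338, chr17:34197721-34201454) and Psmb9 (ENSMUSG00000096727, chr17:34181987-34187764) lie in the MHC, on opposite strands and with starts 9957 bases apart. Between them lies Tap1, a subunit of the peptide transporter, whose start is 211 bases from that of Psmb9 on the other strand, so that the annotated 5′ ends of the 2 genes overlap. Tap2, the other subunit, starts 5806 bases from Psmb8. Psme1 (ENSMUSG00000022216, chr14:55578123-55581529) and Psme2 (ENSMUSG00000079197, chr14:55587441-55591113) are also neighbours, with starts 12990 bases apart. Psmb10 (ENSMUSG00000031897) is at chr8:105935735-105938444. The constitutive genes are Psmb5 (ENSMUSG00000022193, chr14:54614119-54618022), Psmb6 (ENSMUSG00000018286, chr11:70525367-70527858) and Psmb7 (ENSMUSG00000026750, chr2:38588036-38644087).

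The promoters of 3 inducible genes and of the constitutive Psmb5 are printed to set the letters near their starts beside how they responded. Each is the 300 bases from 250 before to 50 after the start in RefSeq's annotation of GRCm38.p6, whose starts can differ from GENCODE's, read 5′ to 3′ along each gene, at chr17:34197945-34198244 on the plus strand, chr17:34187281-34187580 on the minus strand, chr14:55578244-55578543 on the plus strand and chr14:54617946-54618245 on the minus strand. Capitals mark matches, on either strand, to a gamma-activated sequence (GAS, TTCNNNGAA), an IRF element (GAAANNGAA), an antioxidant response element (TGACNNNGC) or a Smad element (GTCTAGAC).
Psmb8: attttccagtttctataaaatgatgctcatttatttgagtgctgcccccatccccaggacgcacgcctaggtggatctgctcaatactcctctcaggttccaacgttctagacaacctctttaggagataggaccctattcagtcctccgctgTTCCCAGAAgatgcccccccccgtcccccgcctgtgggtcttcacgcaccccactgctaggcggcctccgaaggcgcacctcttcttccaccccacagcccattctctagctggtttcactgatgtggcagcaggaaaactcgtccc
Psmb9: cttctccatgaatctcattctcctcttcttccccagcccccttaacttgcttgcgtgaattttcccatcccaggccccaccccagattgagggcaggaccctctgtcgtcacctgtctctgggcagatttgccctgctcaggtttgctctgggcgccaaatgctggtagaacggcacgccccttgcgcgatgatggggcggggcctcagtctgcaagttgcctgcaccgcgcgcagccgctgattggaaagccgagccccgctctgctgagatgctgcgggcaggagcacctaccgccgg
Psme1: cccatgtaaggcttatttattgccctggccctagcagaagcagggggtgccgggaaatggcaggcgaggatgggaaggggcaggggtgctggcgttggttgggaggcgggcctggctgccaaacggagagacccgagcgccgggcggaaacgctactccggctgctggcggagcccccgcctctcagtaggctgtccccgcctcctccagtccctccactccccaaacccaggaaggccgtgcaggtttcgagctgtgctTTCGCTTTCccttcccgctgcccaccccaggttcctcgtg
Psmb5: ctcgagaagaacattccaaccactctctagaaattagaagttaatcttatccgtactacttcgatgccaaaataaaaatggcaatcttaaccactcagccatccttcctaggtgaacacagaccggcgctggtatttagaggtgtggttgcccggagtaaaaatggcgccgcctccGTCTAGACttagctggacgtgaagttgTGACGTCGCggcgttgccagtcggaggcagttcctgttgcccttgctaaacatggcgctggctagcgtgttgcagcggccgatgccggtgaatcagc

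The windows of Psmb8, Psmb9 and Psme1 lie wholly downstream of the GENCODE starts given above, and that of Psmb5 holds its GENCODE start. Distances here are from RefSeq's starts. In the Psmb8 window the match was a GAS, 97 bases upstream of the start. The Psme1 window held an IRF element, read on the other strand, 10 bases downstream of the start. In the Psmb5 window a Smad element lay 74 bases and an antioxidant response element 47 bases upstream of the start. None of these letters were in the windows of Psmb9, Psmb10 and Psme2, and that of Psmb6 held an antioxidant response element 9 bases upstream. RefSeq promoters were at hand for 41 of the 48 genes, 44 windows in all, and for Psmb7 there was none. A GAS was in 3 of the 44, Psmb8, Psmd2 and Psmg1, and in 8.30% of all 32851 promoters of the table. An IRF element was in 7, those of Psmb3, Psmb4, Psmc2, Psmd4, Psmd9, Psme1 and Psmg4, and in 8.56% of all promoters. The antioxidant response element was in 6 and in 12.4% of all, and the Smad element in 1 and in 0.213% of all. A match describes the letters of these windows and no binding was measured.

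With IFN-γ, Psmb8, Psmb9, Psmb10, Psme1 and Psme2 were higher than in untreated cells at 4 and at 12 hrs, by 2.67-fold to 36.2-fold, whereas Psmb5, Psmb6 and Psmb7 did not pass the test. At 4 hrs, 7 of the 48 genes were called by edgeR's quasi-likelihood test at an adjusted p under 0.05 (Benjamini-Hochberg, over all genes tested), all 7 higher, in a comparison that called 5.06% of 9137 genes and 4.29% as higher. At 12 hrs, 13 were called, 11 of them higher and 2 lower, where 9.25% of 8971 genes were called and 6.43% as higher. The median log2 fold change (log2FC) of the 48 genes was 0.03 at 4 hrs and 0.02 at 12 hrs, and that of all genes tested was -0.01 at both times. In bulk RNA, fewer expressing cells and less RNA per cell cannot be told apart.

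Psmb9, the inducible subunit that replaces Psmb6, had the highest log2FC of the 48 genes. Its levels in the 4 untreated wells were 14.1, 6.7, 6.6 and 8.0 CPM at 4 hrs and 9.3, 3.6, 9.9 and 18.7 CPM at 12 hrs. IFN-γ brought them to 161.6, 158.7, 149.9 and 130.3 CPM at 4 hrs and to 395.4, 351.3, 353.3 and 347.5 CPM at 12 hrs. Each IFN-γ well was above each untreated well by several fold, while the untreated wells rested on 4 to 16 counts each and were scattered. The log2FC was 4.04 ± 0.24 (SE, adjusted p = 5.39e-27) at 4 hrs and 5.18 ± 0.24 (adjusted p = 5.14e-55) at 12 hrs, 16.4-fold and 36.2-fold, which placed Psmb9 24th of 9137 and 14th of 8971 genes.

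Psmb8, the counterpart of Psmb5, went from 16.7, 11.5, 16.5 and 7.0 CPM in untreated cells at 4 hrs to 137.1, 133.4, 161.7 and 152.5 CPM with IFN-γ. At 12 hrs its levels were 12.4, 11.7, 16.5 and 11.7 CPM in untreated cells and 323.8, 324.1, 273.3 and 298.4 CPM with IFN-γ. Again the groups were far apart, and the untreated wells of both times overlapped. The log2FC was 3.49 ± 0.21 (adjusted p = 3.00e-25) at 4 hrs and 4.54 ± 0.20 (adjusted p = 1.26e-53) at 12 hrs.

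Psmb10, which replaces Psmb7, had untreated levels of 36.9, 40.4, 38.4 and 38.0 CPM at 4 hrs and 32.5, 42.1, 44.0 and 43.3 CPM at 12 hrs. Treated with IFN-γ, the wells had 366.1, 387.1, 392.4 and 374.5 CPM at 4 hrs and 571.3, 506.0, 559.6 and 551.2 CPM at 12 hrs. The spread within each of these groups was small beside the gap between them. Its log2FC was 3.31 ± 0.12 (adjusted p = 3.99e-35) at 4 hrs and 3.77 ± 0.12 (adjusted p = 2.44e-59) at 12 hrs.

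The genes of the PA28αβ activator followed. For Psme1, untreated cells had 240.0, 207.8, 248.1 and 237.8 CPM at 4 hrs and 228.8, 203.4, 242.2 and 209.3 CPM at 12 hrs. IFN-γ wells had 579.2, 605.1, 637.9 and 649.6 CPM at 4 hrs and 1171.7, 1172.9, 1119.2 and 1117.3 CPM at 12 hrs. No IFN-γ well at 4 hrs came near one at 12 hrs, and the log2FC was 1.42 ± 0.07 (adjusted p = 1.12e-23) and 2.37 ± 0.07 (adjusted p = 1.23e-56), respectively. Psme2 had 121.3, 147.2, 174.5 and 160.8 CPM in untreated cells and 623.2, 573.7, 571.8 and 576.8 CPM with IFN-γ at 4 hrs. The corresponding values at 12 hrs were 132.2, 130.9, 166.2 and 148.5 CPM, and 1006.7, 960.7, 918.2 and 1037.5 CPM. The groups of Psme2 did not overlap at either time, and its log2FC was 1.97 ± 0.08 (adjusted p = 2.21e-28) at 4 hrs and 2.78 ± 0.08 (adjusted p = 2.95e-58) at 12 hrs.

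Psme2b was called as well, at 3.5 to 10.0 CPM in untreated and 10.3 to 24.5 CPM in IFN-γ wells at 4 hrs, and at 4.4 to 5.4 and 29.1 to 50.2 CPM at 12 hrs. Its log2FC was 1.40 ± 0.35 (adjusted p = 0.00250) and 2.98 ± 0.35 (adjusted p = 1.23e-15). Because it is a near-copy of Psme2 and the counting could split their reads, its values are uncertain and may come from Psme2 transcripts.

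**Figure D1:**
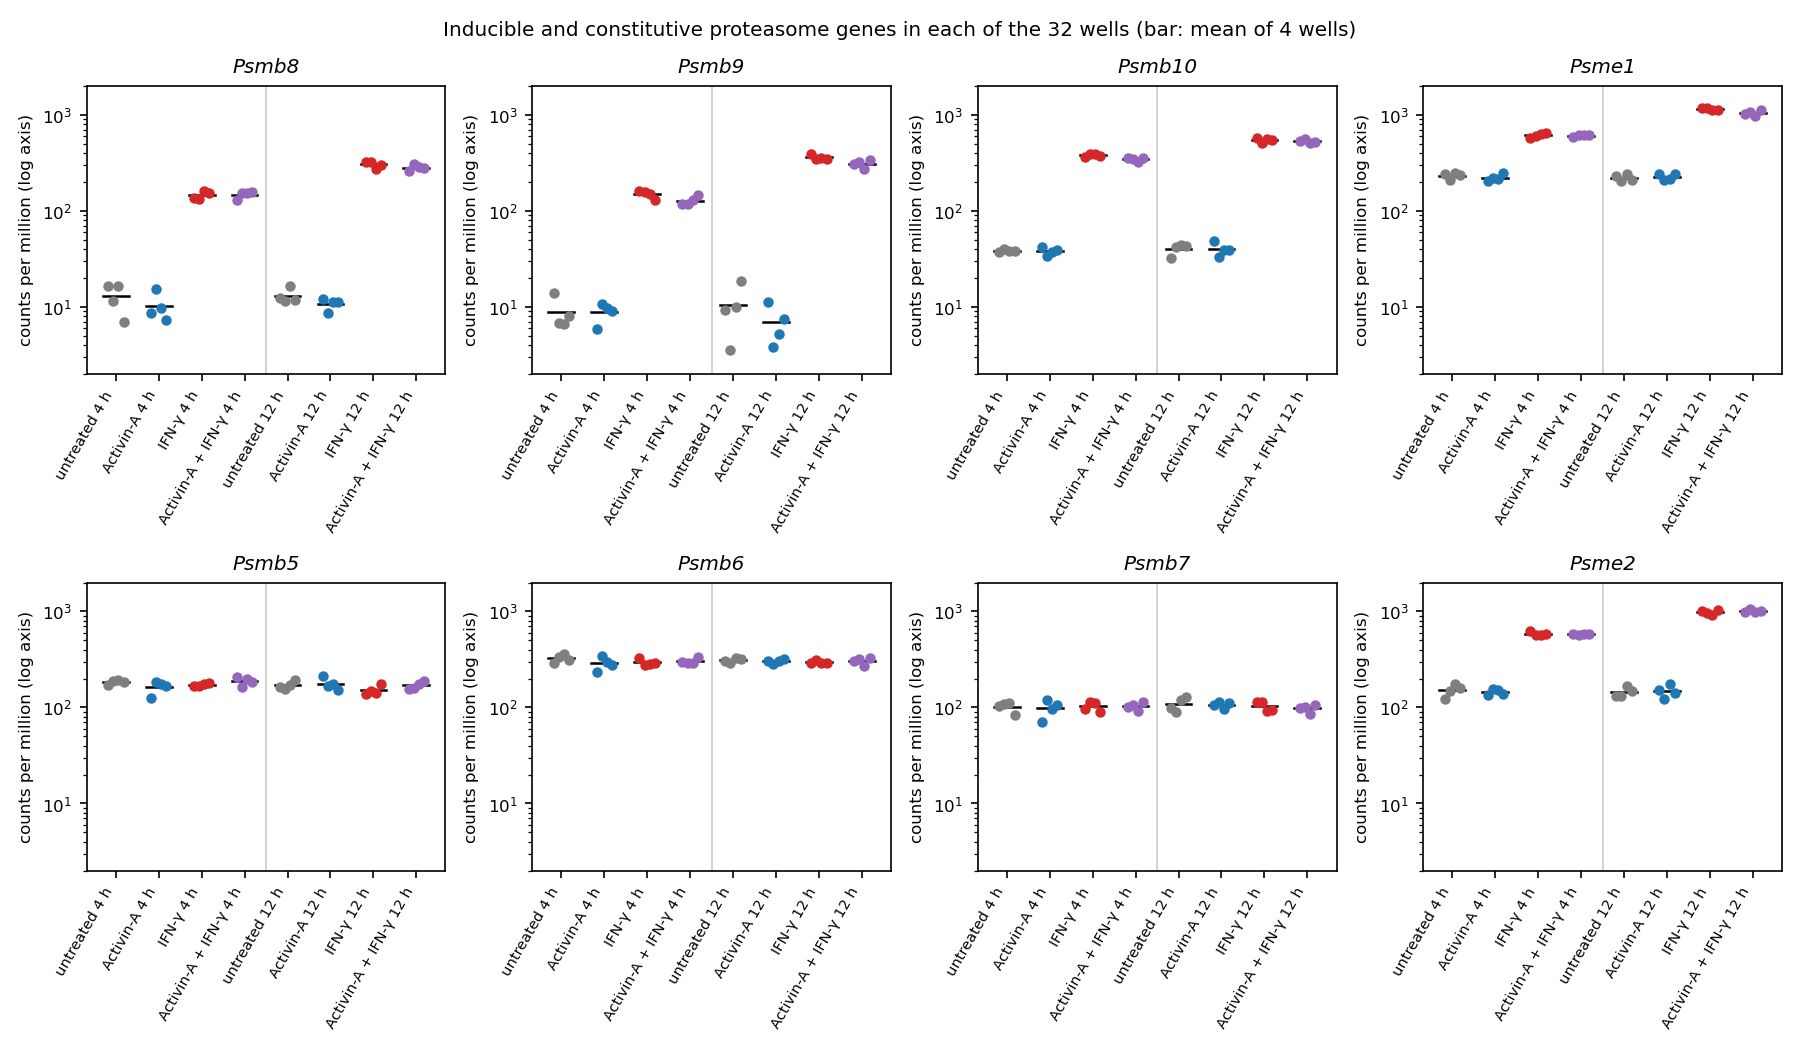
Levels of 8 genes in each of the 32 wells, in CPM on a log axis, with points for wells and a bar for the mean of 4 wells, grouped by treatment and time. Psmb8, Psmb9 and Psmb10 reach at most 48.2 CPM in wells without IFN-γ and at least 118.7 CPM in wells with it, Psme1 and Psme2 lie at 121.3 to 248.1 CPM without and at 564.6 CPM or more with it, and for Psmb5, Psmb6 and Psmb7 the wells with and without IFN-γ overlap.

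The constitutive catalytic genes were not called in the same wells. Psmb5, which carries the chymotrypsin-like activity, had 170.5, 187.6, 194.3 and 182.8 CPM in untreated and 165.3, 167.4, 176.4 and 179.1 CPM in IFN-γ wells at 4 hrs. At 12 hrs it had 163.9, 156.8, 172.8 and 194.1 CPM, and 137.1, 148.4, 141.5 and 176.2 CPM. The groups overlapped at both times, and the 95% interval of the log2FC was -0.28 to 0.11 at 4 hrs and -0.35 to 0.02 at 12 hrs. Psmb6, the caspase-like subunit, had 293.6, 333.9, 360.1 and 308.7 CPM in untreated and 328.2, 277.3, 285.1 and 292.2 CPM in IFN-γ wells at 4 hrs, and 306.9, 286.8, 328.1 and 322.7 CPM against 291.1, 310.5, 287.4 and 292.6 CPM at 12 hrs. Its groups overlapped too, with intervals of -0.29 to 0.05 and -0.21 to 0.07. Psmb7, the trypsin-like subunit, had 103.7, 107.8, 110.9 and 82.9 CPM in untreated and 96.7, 114.2, 110.2 and 89.1 CPM in IFN-γ wells at 4 hrs. Its 12-hr values were 98.2, 90.5, 118.9 and 128.6 CPM and 115.2, 112.9, 92.9 and 93.1 CPM. Again the wells overlapped, with intervals of -0.23 to 0.28 and -0.28 to 0.15. The lowest adjusted p of these 6 tests was 0.366, for Psmb5 at 12 hrs, and a fall of Psmb5 by 0.35 on the log2 scale was still within its interval.

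Among the other genes of the core, the changes called were small. Psma5, a subunit of the α ring that gates the core, was higher at both times. Its levels were 211.0, 234.8, 264.6 and 253.8 CPM in untreated and 336.7, 326.9, 341.0 and 295.7 CPM in IFN-γ wells at 4 hrs, and 238.1, 237.5, 256.5 and 259.5 CPM against 373.6, 287.5, 298.2 and 342.5 CPM at 12 hrs. These groups did not overlap, and the log2FC was 0.44 ± 0.09 (adjusted p = 1.37e-04) and 0.39 ± 0.08 (adjusted p = 5.78e-05). At 12 hrs, 3 of the 7 α subunits were called as higher, namely Psma5, Psma4 (log2FC 0.29, adjusted p = 0.0214) and Psma2 (0.25, adjusted p = 0.0141), and Psma6 fell by 0.22 (adjusted p = 0.0405), where 9.25% of all genes were called and 6.43% as higher. Psma2 was at 259.0 to 279.4 CPM in untreated and 306.3 to 334.2 CPM in IFN-γ wells, and Psma4 at 130.9 to 143.4 and 153.7 to 177.2 CPM, both without overlap. Of the 4 β subunits without an active site, Psmb2 was called as higher, with a log2FC of 0.30 (adjusted p = 0.00358), but its untreated wells at 322.4 to 408.0 CPM overlapped with its IFN-γ wells at 369.5 to 473.0 CPM. The other 3, Psmb1, Psmb3 and Psmb4, had log2FC of at most 0.18 and were not called. With DESeq2's Wald test, the calls at 12 hrs comprised 7 genes, which are the 5 inducible ones, Psme2b and Psma5. The adjusted p of Psma2, Psma4, Psma6 and Psmb2 was then 0.0669, 0.122, 0.143 and 0.261. These 4 calls also rested on single wells, whereas Psma5 was called whichever well was left out. Psma2 was lost without replicate 4 of IFN-γ (adjusted p = 0.103) or replicate 2 of untreated (0.0566), and Psmb2 without replicate 4 of IFN-γ (0.0893). Psma4 was lost without replicate 1, 3 or 4 of IFN-γ or replicate 3 or 4 of untreated, with adjusted p of 0.0525 to 0.0814. Psma6 was lost without replicate 2, 3 or 4 of IFN-γ or replicate 1, 2 or 4 of untreated, with adjusted p of 0.0748 to 0.161.

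In the cap, 0 of 17 subunits were called at 4 hrs and 1 at 12 hrs, against 5.06% and 9.25% of all genes. The 6 ATPases of its base, Psmc1 to Psmc6, which unfold substrates and open the core, had a log2FC of -0.18 to 0.07 at 4 hrs and of -0.24 to 0.01 at 12 hrs, and 0 were called. At an unadjusted p under 0.05 there were Psmc2 (-0.20) and Psmc5 (-0.24) at 12 hrs, against 18.6% of all genes, and none at 4 hrs, against 13.3%, and DESeq2 called 0. Of 11 other cap subunits, Psmd6 was called at 12 hrs, when it fell by 0.25 (adjusted p = 0.0411) from 206.9 to 223.5 CPM in untreated to 155.6 to 195.4 CPM in IFN-γ wells, without overlap. It was lost without replicate 1 or 3 of IFN-γ or replicate 1, 2 or 3 of untreated, with adjusted p of 0.0687 to 0.208, and DESeq2 gave 0.158. Without replicate 1 of untreated, 1 of the 48 genes was still called as lower, a gene other than Psmd6 and Psma6. The other 10 of these 11 cap subunits had -0.11 for Psmd14 to 0.10 for Psmd13, with unadjusted p above 0.05. At 4 hrs the 11 had -0.13 for Psmd11 to 0.26 for Psmd1 and 0 were called by edgeR or DESeq2, or by unadjusted p under 0.05. Chaperones that assemble the base, Psmd5 (-0.23 at 12 hrs), Psmd9 (-0.05) and Psmd10 (-0.11), were not called. Psmg4, a chaperone of core assembly, was called at 12 hrs, with a log2FC of 0.64 ± 0.22 (adjusted p = 0.0431), and had 20.1, 19.7, 20.9 and 17.5 CPM in untreated and 44.9, 26.1, 31.3 and 24.1 CPM in IFN-γ wells. At 4 hrs its log2FC was 0.81 and its adjusted p 0.0507. At most 46 counts lie behind each of these values, and DESeq2's adjusted p for Psmg4 at 12 hrs was 0.208. Without replicate 1 of IFN-γ its log2FC was 0.45 (adjusted p = 0.297), and it was also lost without replicate 3 of IFN-γ or any 1 of the untreated wells, with adjusted p of 0.0607 to 0.0996. The activators Psme3, which forms the nuclear PA28γ ring, and Psme4 had log2FC of -0.17 and -0.21 at 12 hrs and the inhibitor Psmf1 had 0.36, with adjusted p of 0.448, 0.389 and 0.120.

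**Figure D2:**
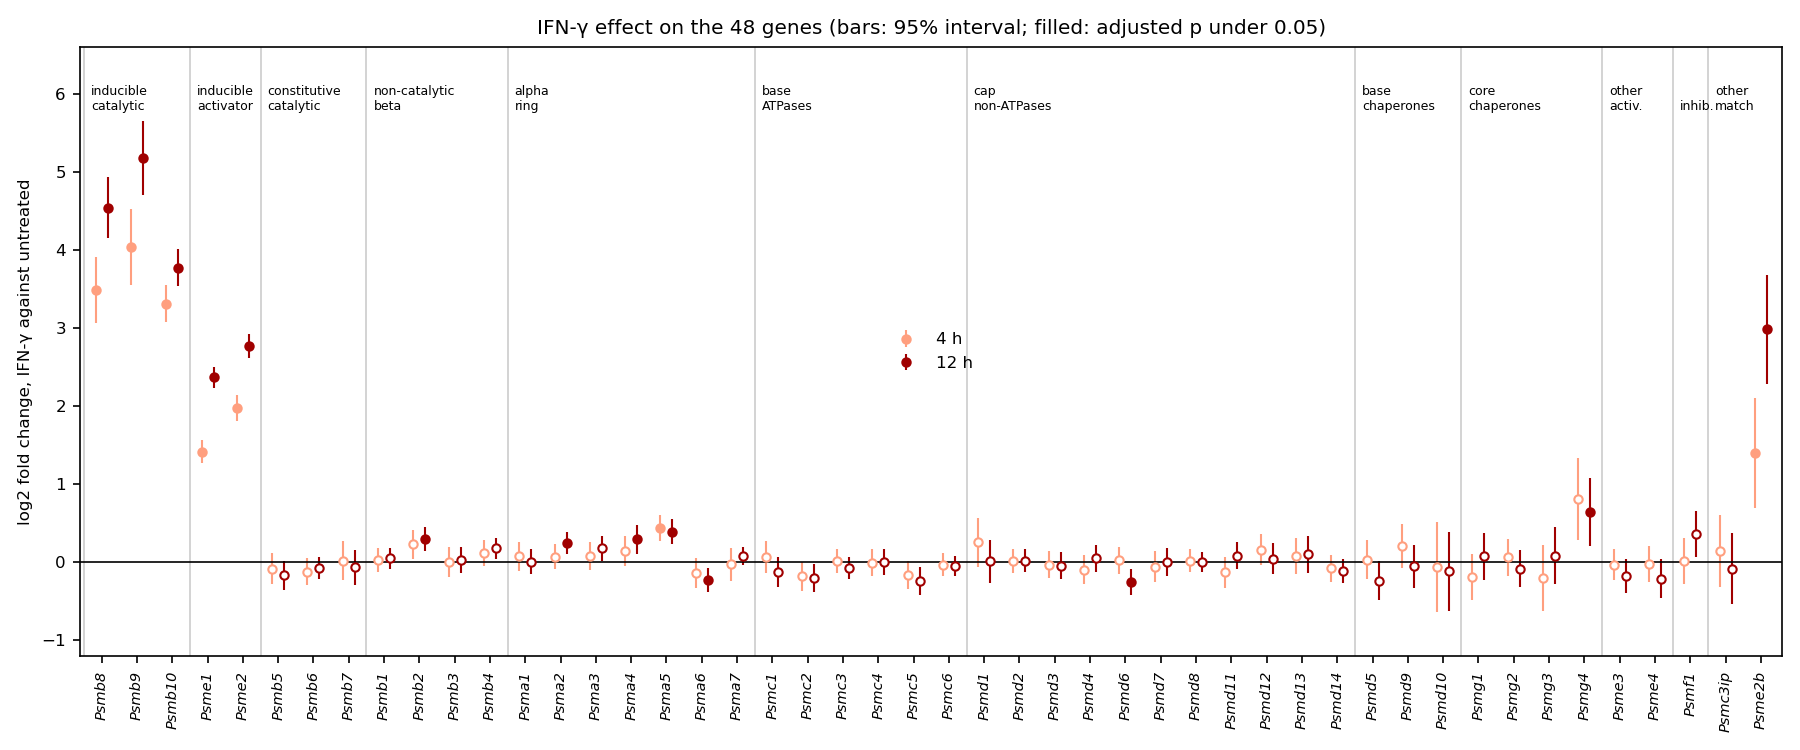
Log2FC of IFN-γ against untreated for the 48 genes by subgroup, at 4 hrs (light) and 12 hrs (dark), with 95% intervals and filled points for an adjusted p under 0.05. The 5 inducible genes and Psme2b lie between 1.40 and 5.18, and the other 41 subunits and regulators between -0.25 and 0.81.

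Taking these 41 subunits and regulators of the proteasome other than the 5 inducible genes as a whole, 5 were called as higher and 2 as lower by IFN-γ at 12 hrs and 34 were not called, where 9.25% of all genes were called, with a median log2FC of 0.01 beside -0.01 for all genes. At 4 hrs, 1 was called, against 5.06% of all genes. Over the means of all 8 groups, the highest was less than 1.5 times the lowest for 37 of the 41. The share of all genes within this limit was not computed. The other 4 were Psma5 (1.51), Psme3 (1.54), Psmd10 (1.56) and Psmg4 (2.01), and Psmd10 rests on 10 to 27 counts per well. Without the library that stood apart, a setting added after the data were seen, Psma5 was at 1.43 and 38 of the 41 were below 1.5. For the 5 inducible genes, the mean level with IFN-γ was 5.18 to 34.9 times that of untreated wells at 12 hrs. All 4 IFN-γ wells were above all 4 untreated wells for 5 of these 5 genes at both times, where 6.04% of all genes tested at 4 hrs and 7.88% at 12 hrs were so ordered. The same held for 1 of the 41 others at 4 hrs and 6 at 12 hrs, and at 12 hrs 2 of the 41, Psmc1 and Psmd6, had all IFN-γ wells below, against 4.63% of all genes.

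The inducible and the constitutive subunit of each active site were set against each other within wells, since such a ratio of counts does not depend on the library's size. It does depend on how well the 3′ end of each transcript is captured, so that it compares wells and not the abundance of the 2 subunits. Psmb8 had 0.0706 ± 0.0263 counts (SD, n = 4) per count of Psmb5 in untreated cells and 0.849 ± 0.0506 with IFN-γ at 4 hrs, and 0.0764 ± 0.0145 and 2.04 ± 0.292 at 12 hrs. For Psmb9 and Psmb6 the ratio was 0.0281 ± 0.0136 and 0.509 ± 0.0534 at 4 hrs, and 0.0327 ± 0.0188 and 1.23 ± 0.0966 at 12 hrs. For Psmb10 and Psmb7 it was 0.384 ± 0.0507 and 3.73 ± 0.351, and 0.376 ± 0.0623 and 5.35 ± 0.750. All 3 ratios were higher with IFN-γ than in any untreated well at both times, by 3.56, 4.13 and 3.25 on the log2 scale at 4 hrs and by 4.65, 5.26 and 3.80 at 12 hrs. Each of these 6 differences had an exact two-sided permutation p of 0.0286, which is the smallest that 4 against 4 wells can give, and 0.0735 after adjustment over the 18 ratio tests that were run. The adjusted value is above the threshold, since only 7 of the 18 tests reached the smallest p. It depends on how many tests reach that floor and not on the size of a difference, so it cannot decide here.

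As a share of the counts of all 6 catalytic genes, the inducible genes held 9.02% ± 1.09 (SD, n = 4) in untreated cells and 54.2% ± 0.990 with IFN-γ at 4 hrs, and 9.71% ± 0.727 and 68.8% ± 1.35 at 12 hrs. The summed level of Psmb5, Psmb6 and Psmb7 was 609.2 ± 46.4 and 570.3 ± 14.4 CPM at 4 hrs and 592.1 ± 50.0 and 549.7 ± 22.1 CPM at 12 hrs, and the groups overlapped at both times. The summed level of the inducible 3 was 60.2 ± 6.13 and 676.4 ± 20.6 CPM, and 63.9 ± 9.60 and 1214 ± 51.6 CPM. In the same way, Psme1 and Psme2 held 62.7% ± 1.91 of the counts of the 4 activator genes in untreated cells and 84.3% ± 1.07 with IFN-γ at 4 hrs, and 64.7% ± 4.35 and 92.4% ± 0.859 at 12 hrs.

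**Figure D3:**
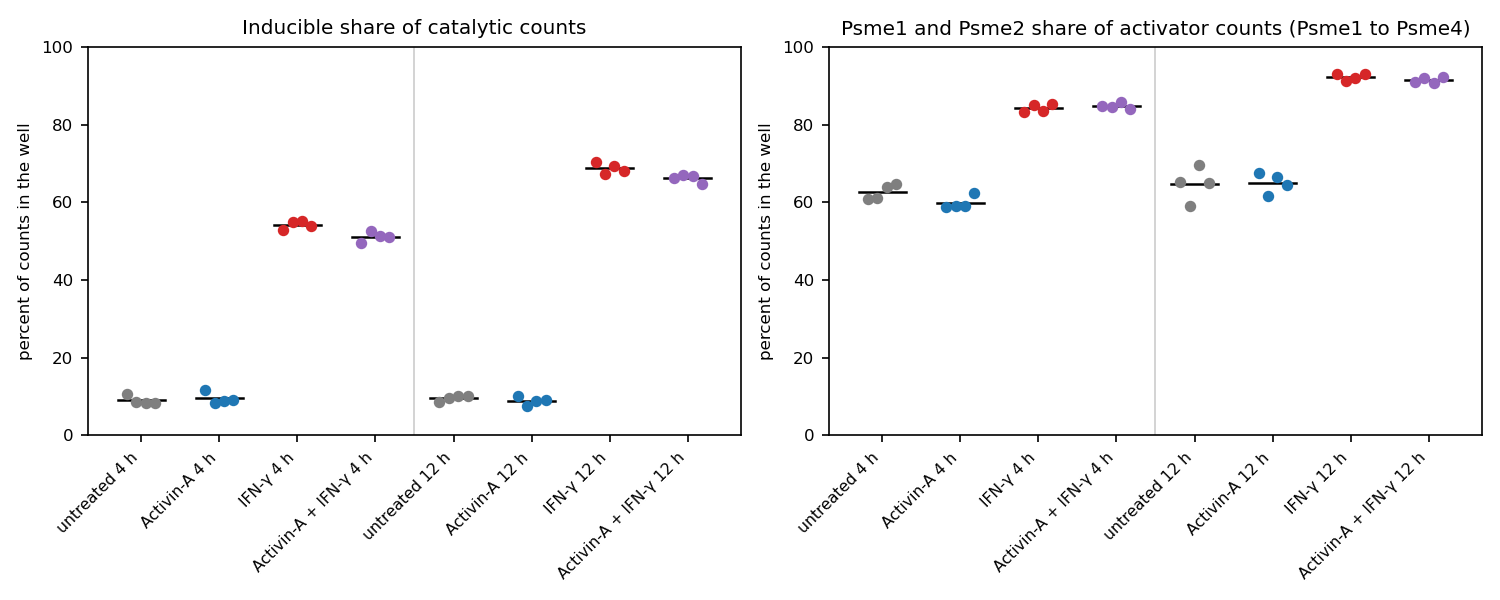
Share of the inducible Psmb8, Psmb9 and Psmb10 in the counts of the 6 catalytic genes (left) and of Psme1 and Psme2 in the counts of Psme1 to Psme4 (right), in percent per well, with a bar for the mean of 4 wells. Inducible shares are 7.51% to 11.6% in wells without IFN-γ and 49.6% to 70.4% in wells with it.

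The effect of IFN-γ at 12 hrs was compared with that at 4 hrs in 1 fit of all 32 wells. Of the 48 genes 2 were called, against 0.579% of 9332 genes, and both were of the PA28αβ ring. The effect on Psme1 was larger at 12 hrs by 0.97 ± 0.10 on the log2 scale (adjusted p = 3.70e-12), and that on Psme2 by 0.81 ± 0.12 (adjusted p = 4.40e-07). For the catalytic genes the difference was 1.07 ± 0.28 for Psmb8 (adjusted p = 0.0592), 1.15 ± 0.35 for Psmb9 (0.196) and 0.47 ± 0.16 for Psmb10 (0.352). Their 95% intervals were 0.50 to 1.63, 0.45 to 1.86 and 0.15 to 0.80, and the untreated wells of Psmb8 and Psmb9 held 4 to 19 counts. DESeq2 called Psmb8 as well (adjusted p = 0.0444), and so did edgeR without replicate 3 of IFN-γ at 12 hrs (0.042), replicate 3 of untreated at 12 hrs (0.0487) or replicate 4 of untreated at 4 hrs (0.0132). Psmb9 was called without replicate 4 of untreated at 12 hrs, with a difference of 1.52 (adjusted p = 0.0309). Of 16 fits that left out 1 well, 3 thus called Psmb8 and 1 called Psmb9. Without replicate 1 of untreated at 4 hrs the differences were 0.90 (adjusted p = 0.392) and 0.81 (0.722). For Psmb5, Psmb6 and Psmb7 the difference was -0.07, 0.06 and -0.08. Without any factor, 1 of the 48 genes differed between 12 and 4 hrs, in a comparison that called 4.9% of all genes. This was Psme3, which fell by 0.36 ± 0.10 (adjusted p = 0.0183) from 138.9, 129.9, 143.8 and 125.9 CPM to 105.9, 116.5, 107.9 and 86.5 CPM. All its 12-hr wells were below all its 4-hr wells, as for 4 of the 48 genes, and the share of all genes so ordered was not computed. The adjusted p of Psme3 was 0.108 without replicate 4 at 12 hrs, 0.056 and 0.0663 without replicate 1 or 3 at 4 hrs, and 0.0504 with DESeq2. Without replicate 4 at 12 hrs the 1 gene called was instead Psmd11, a subunit of the cap, with a log2FC of -0.33 (edgeR adjusted p = 0.0491), which was -0.27 (0.0833) with all wells.

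Activin-A alone did not give a call among the 48 genes. At 4 hrs, edgeR and DESeq2 called 0 of them, against 1.64% of all genes by edgeR, and 5 had an unadjusted p under 0.05, as 11.3% of all genes did. At 12 hrs both called 0, against 2.41%, and 1 had an unadjusted p under 0.05, against 11.3%. The members' shares were thus not above those of all genes. At 4 hrs the 5 were Psmb4, Psmb6, Psmc2, Psmc5 and Psmd11, with log2FC of -0.23 to -0.18, and 34 of the 48 genes were below 0 with a median of -0.07. Without the library that stood apart, 25 were below 0, the median was -0.01, and 1 gene, Psmd11, had an unadjusted p under 0.05. In that fit Psmb5, at -0.19 with the library, had -0.07, Psmb6 went from -0.18 to -0.09, and Psmb7 and Psmb9 turned from -0.09 and -0.10 to 0.06 and 0.10. At 12 hrs it was Psma7, an α subunit, with a log2FC of -0.16 and an adjusted p of 0.205, which became 0.0338 without replicate 1 of Activin-A.

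The inducible genes under Activin-A had wide intervals where counts were low. Psmb8 had 8.6, 15.3, 9.7 and 7.3 CPM at 4 hrs and 12.0, 8.7, 11.4 and 11.2 CPM at 12 hrs, which overlapped with the untreated wells. Its log2FC was -0.43 (95% interval -1.03 to 0.16), or -0.36 without the library that stood apart, and -0.25 (-0.82 to 0.31). Psmb9, at 5.9, 10.7, 9.7 and 9.1 CPM and at 11.2, 3.9, 5.2 and 7.4 CPM, had -0.10 (-0.76 to 0.56) and -0.46 (-1.18 to 0.27). No difference of Psmb8 or Psmb9 was detectable at this depth, and a fall of Psmb9 by 1.18 on the log2 scale at 12 hrs was still within its interval. Psmb10 had 42.2, 33.7, 37.0 and 39.0 CPM and 48.2, 32.9, 39.3 and 39.6 CPM, and its interval was -0.28 to 0.31 at 4 hrs and -0.30 to 0.33 at 12 hrs. Its log2FC at 4 hrs was 0.02 with and -0.05 without that library. Psme1 and Psme2 were the best determined, at 205.2 to 247.6 and 121.9 to 174.8 CPM over both times, with intervals within -0.25 to 0.23.

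Added to IFN-γ, Activin-A gave 0 calls among the 48 genes with either tool. At 4 hrs 0.81% and at 12 hrs 1.03% of all genes were called by edgeR. Of the 48 genes, 2 and 3 had an unadjusted p under 0.05, against 9.3% and 10.3% of all genes. At 4 hrs these were Psmb9 and Psmf1, and at 12 hrs Psmb9, Psma7 and Psme1. Psmb9 had 119.1, 118.7, 130.5 and 145.2 CPM with both factors at 4 hrs and 308.3, 320.1, 272.2 and 339.1 CPM at 12 hrs. The 12-hr wells with both factors were all below those with IFN-γ alone, and the 4-hr wells overlapped. Of the 48 genes, 1 was in that order at 12 hrs, and the share of all genes so ordered was not computed. The log2FC of Psmb9 was -0.22 at both times. Its 95% interval was -0.43 to -0.01 at 4 hrs (adjusted p = 0.508) and -0.37 to -0.07 at 12 hrs (adjusted p = 0.203). Over the alternatives tried, left-out wells included, the adjusted p at 12 hrs ranged from 0.140 to 0.536.

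Psmb8 had 129.7, 152.9, 152.4 and 157.9 CPM with both factors at 4 hrs and 259.8, 306.6, 285.4 and 279.7 CPM at 12 hrs, which overlapped with IFN-γ alone, and its log2FC was 0.03 and -0.11. Psmb10 had 353.1, 350.2, 326.7 and 354.5 CPM at 4 hrs, all below the IFN-γ wells, and 533.1, 557.9, 511.1 and 517.4 CPM at 12 hrs, which overlapped with them. At 4 hrs 1 of the 48 genes was in that order and 1 in the opposite one, and the share of all genes was not computed. The log2FC of Psmb10 was -0.14 (95% interval -0.28 to 0.01, adjusted p = 0.558) and -0.04 (-0.17 to 0.08). Psme1 had 586.1, 619.3, 616.2 and 612.5 CPM at 4 hrs and 1017.6, 1069.6, 979.1 and 1132.7 CPM at 12 hrs. Its wells overlapped with those of IFN-γ alone at both times, with a log2FC of -0.02 and -0.12 (adjusted p = 0.382). Psme2, at 577.6, 564.6, 582.9 and 581.8 CPM and at 992.8, 1064.0, 991.3 and 1016.1 CPM, overlapped too and had -0.03 and 0.05. At 12 hrs, the intervals of these 5 genes reached no farther from 0 than that of Psmb9, at -0.37, and those of Psmb5, Psmb6 and Psmb7 no farther than that of Psmb5, at 0.35.

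**Figure D4:**
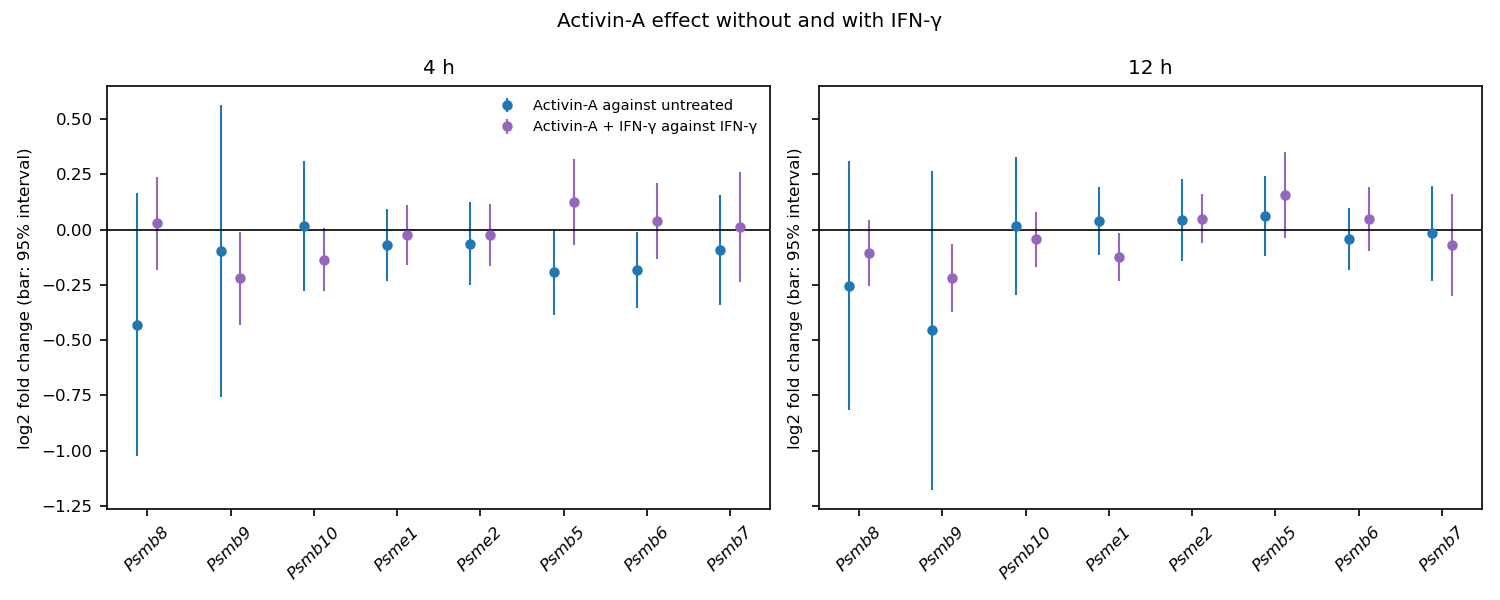
Log2FC of Activin-A against untreated (blue) and of Activin-A with IFN-γ against IFN-γ (purple), at 4 hrs on the left and 12 hrs on the right, for the 5 inducible and 3 constitutive genes, with 95% intervals. No gene had an adjusted p under 0.05, and the intervals of Psmb8 and Psmb9 without IFN-γ are the widest.

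The effect of Activin-A with IFN-γ did not differ detectably from its effect without IFN-γ. This interaction called 0 of the 48 genes at either time by edgeR or DESeq2, against 0% of all genes at 4 hrs and 0.0111% at 12 hrs by edgeR, and 2 of the 48 had an unadjusted p under 0.05 at each time, against 5.53% and 6.82% of all genes. These were Psmb5 (0.32, adjusted p = 0.846, and 0.20 without the library that stood apart) and Psmc2 (0.27, and 0.21 without it) at 4 hrs, and Psmd9 and Psmf1 at 12 hrs. For Psmb9 the interaction was -0.12 with and -0.31 without that library at 4 hrs, and its interval was -0.82 to 0.57 at 4 hrs and -0.50 to 0.98 at 12 hrs.

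The ratios of inducible to constitutive counts within wells were compared in the same way. With Activin-A against untreated cells, the log2 ratio of Psmb8 to Psmb5 differed by -0.12 at 4 hrs and -0.27 at 12 hrs (exact two-sided permutation p = 0.743 and 0.200). That of Psmb9 to Psmb6 differed by 0.20 and -0.37 (exact p = 0.514 at both times), and that of Psmb10 to Psmb7 by 0.04 and 0.01 (exact p = 0.800 and 1.00). Adjusted over the 18 ratio tests these p-values were 0.327 to 1.00, and without the library that stood apart the value of 0.04 turned to -0.16. With both factors, Psmb9 had 0.423 ± 0.0250 counts (SD, n = 4) per count of Psmb6 at 4 hrs and 1.01 ± 0.0121 at 12 hrs, against 0.509 ± 0.0534 and 1.23 ± 0.0966 with IFN-γ alone. The difference was -0.26 on the log2 scale at 4 hrs (exact p = 0.0571) and -0.27 at 12 hrs (exact p = 0.0286, adjusted p = 0.0735). For Psmb8 and Psmb5 it was -0.11 and -0.28 (exact p = 0.543 and 0.0571), and for Psmb10 and Psmb7 -0.14 and 0.03 (exact p = 0.114 and 0.886). The share of the inducible genes in the catalytic counts was lower with both factors than with IFN-γ alone in all wells, at 51.1% ± 1.26 and 54.2% ± 0.990 at 4 hrs and at 66.2% ± 1.13 and 68.8% ± 1.35 at 12 hrs. This share was examined after its values were seen. Its differences of -3.11 and -2.60 percentage points had an exact two-sided permutation p of 0.0286 each, the smallest possible for 4 against 4 wells. Adjusted over the 6 share tests and 18 ratio tests it was 0.0623, above the threshold. The differences of 45.2 and 59.1 points between IFN-γ and untreated had the same p and adjusted p. The adjusted p thus cannot decide, and no conclusion is drawn from it. Leaving out any of the wells moved the differences between both factors and IFN-γ to between -3.63 and -2.60 at 4 hrs and between -3.08 and -2.07 at 12 hrs. Without IFN-γ, the share with Activin-A minus that of untreated cells was 0.52 points at 4 hrs and -0.76 points at 12 hrs (exact p = 0.543 and 0.371). With 1 well left out these ran from -0.17 to 1.06 and from -1.21 to -0.28, and the value of -0.17 was without the library that stood apart.

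Activin-A wells with and without IFN-γ were also set side by side. With Activin-A and IFN-γ together, the mean levels of the 5 inducible genes were 2.74 to 14.5 times those with Activin-A alone at 4 hrs and 4.62 to 44.7 times at 12 hrs. Without the library that stood apart, the ratios at 4 hrs were 2.67 to 13.8. These values are descriptive, since this comparison was not tested.

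Genes that work with the proteasome were counted in the same fits. Of 29 partners listed, 27 were tested, and Paaf1 was not matched by symbol. With IFN-γ at 4 hrs 0 of the 27 were called by edgeR, against 5.06% of all genes, and 1 had an unadjusted p under 0.05, against 13.3% of all genes. At 12 hrs 3 were higher and 1 lower, against 9.25% of all genes called, and nothing is read from these counts about the partners as a group. Pomp, the chaperone that matures new cores, went from 186.3, 170.3, 166.2 and 216.3 CPM to 303.2, 272.8, 286.3 and 270.2 CPM at 12 hrs, without overlap, with a log2FC of 0.61 ± 0.08 (adjusted p = 1.46e-09). The ubiquitin gene Ubb was higher (0.26, adjusted p = 3.42e-04), and Vcp, the ATPase that extracts ubiquitin-tagged proteins, fell by 0.23 (adjusted p = 0.0272). With Activin-A, Nfe2l2, which encodes a transcription factor of the antioxidant response, fell by 0.33 at 12 hrs (adjusted p = 0.00365), and edgeR called 0 of the other 26 partners, against 2.41% of all genes. Of the 27 partners, 4 had an unadjusted p under 0.05 at 12 hrs, against 11.3% of all genes. Of 8 peptidases that trim the products of the proteasome, Erap1 and Lap3 rose with IFN-γ at both times and the other 6 were not called. Erap1, which trims peptides in the endoplasmic reticulum, had a log2FC of 1.71 ± 0.17 and 2.81 ± 0.18, and its effect was larger at 12 hrs by 1.12 (adjusted p = 0.00461). Lap3, a leucine aminopeptidase of the cytosol, went from a mean of 215 to 602 CPM at 4 hrs (adjusted p = 1.22e-24) and had a log2FC of 1.84 ± 0.07 at 12 hrs. The neighbours of Psmb8 and Psmb9 rose as well. Tap1 went from 20.2 to 26.0 CPM in untreated to 260.2 to 311.1 CPM in IFN-γ wells at 4 hrs and from 18.6 to 24.2 to 381.6 to 400.8 CPM at 12 hrs, with a log2FC of 3.63 and 4.20, and Tap2 had 3.60 and 3.54. With Activin-A added to IFN-γ, edgeR called 0 of the partners, peptidases and neighbours at either time, against 0.81% of all genes at 4 hrs and 1.03% at 12 hrs. By unadjusted p under 0.05 there were 3 partners and 2 peptidases at 4 hrs, against 9.3% of all genes, and 4 partners, 1 peptidase and both neighbours at 12 hrs, against 10.3%. At 12 hrs Tap1 had a log2FC of -0.19 (adjusted p = 0.228) and Tap2 of -0.31 (0.292).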

How the data were processed

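YUMM3.3 cells in 32 wells were profiled by BRB-seq, and the wells were grouped by the treatment and time in the labels. The table deposited by the authors holds raw counts per gene for 12451 genes, neither normalized nor pooled. The submitters' processing notes name STAR 2.7.10b, featureCounts, DESeq2 1.36.0 and the GRCm39 (mm39) build. The annotation and the handling of molecular identifiers are not given in the sources used here, and counting error may include PCR copies. No column was left unused (0), and 14 gene identifiers had no symbol in GENCODE's annotation.

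Counts were analysed with edgeR 4.0.16 in R 4.3.3, using TMM factors, filterByExpr and the quasi-likelihood test, with 16 samples per fit for comparisons within a time (9137 and 8971 genes tested) and 32 samples for those between times (9332 genes). P-values were adjusted by Benjamini-Hochberg over all genes tested, and genes were called at an adjusted p under 0.05. The ± of a log2FC is its SE and that of a level its SD over 4 wells. Fold changes, like p-values, come from the fit, and levels are CPM. For the ratios of subunits, 1 count was added to both genes before the log2, and the exact two-sided permutation test ran in scipy 1.17.1. The alternatives were DESeq2 1.42.0, RLE factors, 2 other filters, all 32 samples in the fit, the replicate block, another pseudocount and leaving out each well. Scripts were tested on simulated data.

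The genes were chosen by symbol, and all of them, the partner, peptidase and marker lists and the tests were chosen with earlier results of these data known. Values in every well are given for the 5 inducible and 3 constitutive genes, and other members are named where they were called or had the extreme log2FC of their subgroup. The members named for an unadjusted p are outside that rule, and they and the shares of catalytic counts were added after the values were seen. A planned comparison of protein sequences was not run, and proteins are not used here. Positions and promoters are of GRCm38, since a genome of the files' build was not used here. A few of the listed genes are not reported here by name.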

Additional observations from a re-analysis of the deposited data

Results flagged for a closer look

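Among 64 groups of 4 wells that were checked for the 8 genes given well by well, 5 held a well that stood apart from the other 3 by Dixon's 95% criterion, and chance gives about 1 in 20. Psmb8 was at 16.5 CPM in untreated replicate 3 at 12 hrs, where the others were at 11.7 to 12.4 CPM. Psmb9 was at 395.4 CPM in IFN-γ replicate 1 at 12 hrs, against 347.5 to 353.3 CPM. Psmb10 was at 326.7 CPM in replicate 3 with both factors at 4 hrs, against 350.2 to 354.5 CPM, and at 32.5 CPM in untreated replicate 1 at 12 hrs, against 42.1 to 44.0 CPM. Psme2 was at 623.2 CPM in IFN-γ replicate 1 at 4 hrs, against 571.8 to 576.8 CPM. The calls of IFN-γ against untreated for these 4 genes were kept when any of the IFN-γ or untreated wells among these was left out.

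The effect of IFN-γ differed between 12 and 4 hrs by edgeR's quasi-likelihood test for Psme1, by 0.97 on the log2 scale, and for Psme2, by 0.81.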

How the results depend on the processing

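The IFN-γ calls of Psmb8, Psmb9, Psmb10, Psme1 and Psme2 held under every alternative that tested them and with any well left out. With at least 10 counts required in every sample, 4 members were called for IFN-γ at 4 hrs and 10 at 12 hrs, since 44 and 45 members were tested and Psmb8, Psmb9 and Psme2b were not among them at either time. DESeq2 called 7 members for IFN-γ at 12 hrs and 0 for untreated cells at 12 against 4 hrs. With all 32 samples in the fit, 8 members were called for IFN-γ at 4 hrs and 10 at 12 hrs, all higher. Without a filter on low counts, 8 were called at 4 hrs, all higher, and 12 at 12 hrs, 10 higher and 2 lower. Leaving out 1 well gave 7 to 8 members called for IFN-γ at 4 hrs, 9 to 12 at 12 hrs, 2 to 3 for the difference of these effects, 0 to 1 for Activin-A at 12 hrs and 0 to 1 for untreated cells between times. The log2FC of Psmb7 changed sign with the well left out. It ran from -0.06 to 0.10 at 4 hrs, with -0.0447 and -0.0040 without IFN-γ replicates 2 and 3 and -0.0604 without untreated replicate 4, and from -0.15 to 0.0178 at 12 hrs, the latter without untreated replicate 4. The cause was not tested. Among the log2FC values followed one by one under the other settings, 194 kept direction and call, 11 lost and 1 gained the call. This tally does not cover all 48 genes. All ratios kept direction under these settings. With a well left out, the ratios of IFN-γ against untreated kept direction in all 48 values, and 12 of the other 96 values turned sign, in 5 differences that were at most 0.12 in size. Replicate numbers did not pair the wells, since the mean correlation of deviations was -0.000234 for equal and 8.07e-05 for other numbers, and 6 of 32 wells correlated best with their own number. With the replicate block, 7 members were called for IFN-γ at 4 hrs and 13 at 12 hrs, as without it, and for all genes 445 in place of 462 and 822 in place of 830. For the ratios, a paired test of 4 pairs cannot reach the threshold. Depth limits Psmb8, Psmb9, Psmd10, Psmg4 and Psme2b, whose untreated wells hold few counts.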
